A study of Mus musculus with 6 samples.

Results

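The bitter taste receptor genes of the mouse, named Tas2r and a number, were examined one by one and by genomic locus in tuft-like medullary thymic epithelial cells (mTEC) and in the mTEC sorted beside them. All protein-coding genes whose symbol is Tas2r followed by digits were taken, which gave 35 of the 52636 gene rows of the count table. The family was singled out after its values in the tuft-like against non-tuft-like contrast had been seen, so the levels of its members in that contrast are a description and no test is read from them. The study sorted thymic epithelium of C57BL/6 mice aged 6 weeks, in triplicate, to compare a population identified by new surface markers with the cells lacking them. Both populations bound the lectin UEA1 and were MHCIIlo, CD80-, Sca1- and CD63-. Tuft-like mTEC carried both CD117 and CD66a, and non-tuft-like mTEC carried neither, with 3 libraries in each group. No source states whether the 3 libraries of a group came from separate animals, so the spread between them may be technical. The genes for CD117 and CD66a served for the sort and are not results.

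TAS2R proteins are G protein-coupled receptors of the cell surface that bind bitter compounds. In taste cells they couple to gustducin, whose beta and gamma subunits act on a phospholipase C, and the released calcium opens the cation channel TRPM5. Tuft cells are chemosensory epithelial cells that hold the same cascade in the gut, the airways and the thymus. Each receptor gene is a single exon, and the genes lie in clusters that differ between species.

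All 35 members had a single exon, of 882 to 1158 bases, and none shared exonic bases with another annotated gene. Runs of members separated by at most 1 Mb formed 6 loci (coordinates of GRCm38, the mm10 build). Tas2r134 stood alone on chromosome 2 (chr2:51627511-51628408), Tas2r118 on chromosome 6 (chr6:23969161-23970060) and Tas2r119 on chromosome 15 (chr15:32177289-32178294). The other members lay in a 3-gene locus (chr6:40491233-40613310), a 5-gene locus (chr6:42140936-42435464) and a 24-gene locus (chr6:131629823-133055816). All 5 genes of the 5-gene locus lay on the plus strand, while the 24-gene locus held both strands. In the 24-gene locus a gap of 966.9 kb between Tas2r114 and Tas2r120, which held the salivary proline-rich protein genes, separated the first 6 members from the last 18.

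The coding sequences differed widely, with a median identity of 51.0% over 595 pairs and a range of 43.5% to 86.2%. The closest pair was Tas2r123 and Tas2r110, which lie near each other in the 24-gene locus and share a run of 120 identical bases. That run is shown in capitals, with the flanking bases in lower case (coding bases 566 to 745 of each gene, GENCODE M21), because a read that falls wholly inside it cannot be assigned to either gene.
Tas2r123: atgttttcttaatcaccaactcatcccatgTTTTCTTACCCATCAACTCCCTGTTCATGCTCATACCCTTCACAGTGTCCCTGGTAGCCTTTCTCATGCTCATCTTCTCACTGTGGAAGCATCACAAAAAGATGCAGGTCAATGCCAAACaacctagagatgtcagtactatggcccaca
Tas2r110: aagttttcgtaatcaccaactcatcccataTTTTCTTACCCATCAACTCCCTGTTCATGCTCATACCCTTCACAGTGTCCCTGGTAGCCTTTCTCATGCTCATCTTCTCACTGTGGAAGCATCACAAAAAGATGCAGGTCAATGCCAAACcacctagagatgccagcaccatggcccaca
Even so, 92.3% of the 50-base words of Tas2r123 and 92.5% of those of Tas2r110 occurred in no other annotated gene. For 31 of the 35 members this share was 100%. The lowest value was that of Tas2r117, at 61.4%, so its counts are the least certain of the family.

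RefSeq windows from 250 bases before to 50 bases after the annotated start (build GRCm38.p6) were given for 31 members. They were searched for the octamer ATGCAAAT, or ATTTGCAT on the other strand, the letters that POU-domain transcription factors of the octamer class recognise. The octamer was in 7 of the 31 Tas2r windows (22.6%) and in 1.74% of all 32851 windows of that length. Tas2r windows were also richer in A and T than all windows, with a median of 63.0% against 47.3%. The windows of olfactory receptor genes, at 65.0% A and T, held it in 2.58% of 932. Those of the vomeronasal families held it in 2.19% (Vmn1r, 183 windows) and 6.09% (Vmn2r, 115 windows). The shorter motif TATAAA, or TTTATA on the other strand, was in 32.3% of the Tas2r windows, in 41.2% of the olfactory receptor windows and in 13.6% of all windows. The 7 octamer stretches are shown 5′ to 3′ on the gene's strand with the octamer in capitals.
Tas2r118, chr6:23970147-23970214, minus strand: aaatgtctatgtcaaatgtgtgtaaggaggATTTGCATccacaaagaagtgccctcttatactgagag
Tas2r137, chr6:40491016-40491083, plus strand: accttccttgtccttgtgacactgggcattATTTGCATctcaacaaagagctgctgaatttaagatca
Tas2r108, chr6:40493416-40493483, plus strand: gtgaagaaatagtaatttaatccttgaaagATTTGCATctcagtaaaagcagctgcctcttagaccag
Tas2r144, chr6:42215141-42215208, plus strand: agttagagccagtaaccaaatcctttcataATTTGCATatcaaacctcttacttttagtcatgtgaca
Tas2r135, chr6:42405356-42405423, plus strand: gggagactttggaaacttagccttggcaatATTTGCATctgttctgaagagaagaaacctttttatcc
Tas2r126, chr6:42434311-42434378, plus strand: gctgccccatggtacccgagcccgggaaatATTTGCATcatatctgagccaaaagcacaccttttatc
Tas2r107, chr6:131660348-131660399, minus strand: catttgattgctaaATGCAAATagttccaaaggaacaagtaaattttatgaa
In 6 of these windows the letters stood as ATTTGCAT on the gene's strand, between 124 and 194 bases before the start. In Tas2r107 they stood the other way, 236 bases before it. The matches were spread unevenly over the loci. Outside the 24-gene locus 6 of 11 windows held the octamer (54.5%), and inside it 1 of 20 (5.0%). The windows inside that locus were the richer in A and T, with a median of 65.8% against 57.3%. In GENCODE M21 the annotated start of 23 of the 35 members, Tas2r118, Tas2r144 and Tas2r126 among them, is the coding start, so the window before it need not be the promoter. The windows follow RefSeq starts, which can differ from those of GENCODE M21, as in Tas2r108, Tas2r135 and Tas2r137. In each of these windows the bases after the RefSeq start begin with ATG, so the same limit applies to them. A match describes the letters in a window and was not tested for binding.

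The libraries held 20097617 to 48369825 reads assigned to genes. All 12 genes of a tuft cell marker list were called higher in the tuft-like libraries, where their summed level was 11650 to 19140 CPM (read counts scaled to a common library total) against 717.5 to 923.5 CPM in the non-tuft-like libraries. Of 5 medullary epithelium markers 3 were called lower in tuft-like mTEC. Over all genes tested 1.16% were called higher and 0.951% lower. The lists were chosen with earlier results of these data known, so these counts are a description. No gene of the thymocyte, macrophage and dendritic cell, sour taste cell, fibroblast or endothelial lists was called. These lists held 2 to 5 genes each, and at the shares over all genes they may hold no call, so nothing is read from that. The macrophage and dendritic cell list summed to 117.4 to 184.3 CPM in the tuft-like and 157.6 to 307.5 CPM in the non-tuft-like libraries. Most of that was Lyz2, at 113 to 170 CPM and 138 to 302 CPM. Tuft-like library 1 stood apart in the fibroblast and endothelial lists, with a summed level of 117.5 CPM for 2 endothelial and 96.0 CPM for 3 fibroblast markers. The highest of these were Pecam1 at 106 CPM, against 3.07 to 8.99 CPM in the other libraries, and Col3a1 at 64.1 CPM, against 0 to 7.79 CPM. Without that library 17 receptors were called, as with it, and the ratio of the summed receptor levels was 17.85 in place of 16.45. Reads assigned to no gene made up 19.7% to 61.6% of the tuft-like and 34.4% to 52.5% of the non-tuft-like libraries. Levels are CPM with TMM library scaling, and CPM per kb of exon where genes are compared.

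The summed level of the 35 receptors was 1296, 1673 and 1718 CPM in tuft-like libraries 1, 2 and 3, and 94.0, 99.9 and 91.0 CPM in the non-tuft-like libraries. The group means were 1562 ± 232 CPM and 95.0 ± 4.53 CPM (SD, n = 3 each), a ratio of 16.45. Bitter receptor transcripts were thus counted in both populations. In bulk RNA a smaller number of receptor-bearing cells and less receptor RNA per cell cannot be told apart. The plot of levels by library shows the receptors in genome order.

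**Figure D1:**
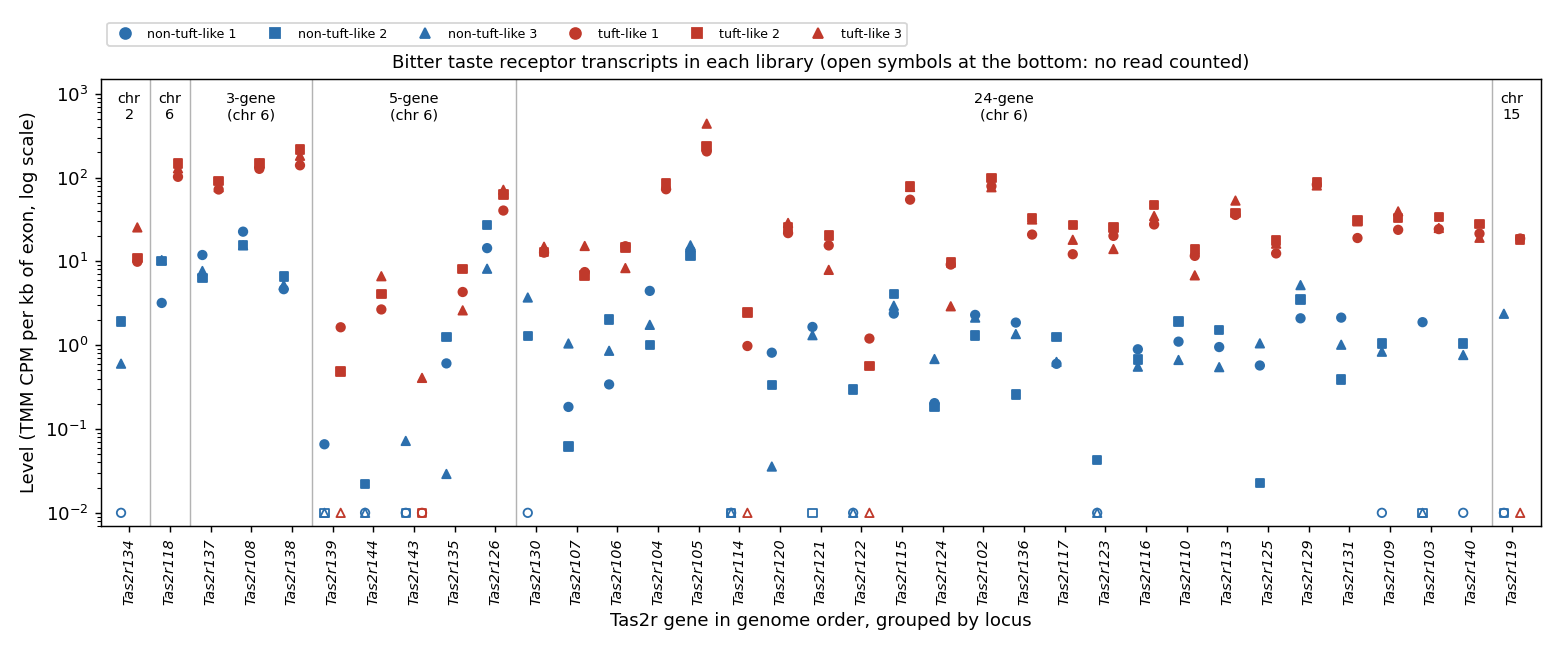
Level of each of the 35 Tas2r genes (TMM CPM per kb of exon, log axis) in the 3 tuft-like (red) and 3 non-tuft-like (blue) libraries, in genome order with vertical lines between loci. Open symbols on the bottom line mark libraries with no read of that gene, and in 30 genes every red symbol lies above every blue one.

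In tuft-like mTEC the mean level of 4 receptors was over 100 CPM per kb, and that of 23 was between 10 and 100. Another 5 lay between 1 and 10, and 3 lay under 1. The 5 receptors with the highest level made up 51.3% ± 3.46 of the summed CPM in tuft-like libraries and 48.3% ± 3.93 in non-tuft-like libraries (SD, n = 3 each).

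Tas2r105, the mouse receptor for cycloheximide, had the highest level. It was at 205, 235 and 439 CPM per kb in the tuft-like libraries and at 13.5, 11.8 and 15.5 CPM per kb in the non-tuft-like ones. Tuft-like library 3 was the high one, and there this single gene made up 24.7% of all Tas2r CPM, against 15.2% and 13.5% in libraries 1 and 2. Tas2r138, the counterpart of the human phenylthiocarbamide receptor gene TAS2R38, was at 140, 215 and 182 against 4.66, 6.63 and 5.20 CPM per kb. In each of the 3 tuft-like libraries Tas2r105 was the one receptor above it.

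Tas2r108, a receptor for denatonium, followed with 127, 147 and 148 CPM per kb in the tuft-like libraries. In the non-tuft-like libraries it was at 22.6, 15.6 and 15.5 CPM per kb, the highest mean of the family there, although Tas2r126 was above it in library 2 and Tas2r105 was about level with it in library 3. Its tuft-like libraries lay close together, at 141 ± 11.9 CPM per kb (SD, n = 3). Tas2r118, the counterpart of the human salicin receptor gene TAS2R16, was at 102, 146 and 129 against 3.19, 10.1 and 10.3 CPM per kb. Both groups of libraries lay far apart for these receptors, with no overlap.

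Tas2r102, Tas2r129 and Tas2r104 of the 24-gene locus and Tas2r137 of the 3-gene locus came next at nearly equal levels. Tas2r102 was at 78.8, 99.1 and 76.6 against 2.30, 1.31 and 2.13 CPM per kb. Tas2r129 was at 82.6, 86.9 and 80.4 against 2.09, 3.53 and 5.20 CPM per kb. These receptors were at nearly one level in every tuft-like library. Tas2r137 was at 72.0, 90.5 and 76.5 against 11.9, 6.29 and 7.67 CPM per kb. Tas2r104 was at 72.5, 85.2 and 80.6 against 4.44, 1.01 and 1.75 CPM per kb. Tas2r137 thus matched the other members of this tier in tuft-like mTEC and stood above them in non-tuft-like mTEC.

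The order of the leading receptors was read within each tuft-like library, on the log2 scale of CPM per kb. Tas2r105 exceeded Tas2r138 by 0.65 ± 0.58, Tas2r138 exceeded Tas2r108 by 0.33 ± 0.21, and Tas2r108 exceeded Tas2r118 by 0.18 ± 0.16 (SD, n = 3). Each of these differences was in the same direction in 3 of 3 libraries and larger than its SD, the first and the third only just. Tas2r118 exceeded Tas2r102 by 0.56 ± 0.19. From Tas2r102 through Tas2r129 and Tas2r137 to Tas2r104, neighbours in the order differed by less than their SD (0.02 ± 0.15, 0.07 ± 0.13 and 0.00 ± 0.08). The first 4 places and the 8 leading members were the same when levels were divided by coding length or by the number of 50-base words unique among annotated transcripts.

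The tuft-like libraries ranked the 35 receptors nearly alike, with Spearman's rho between 0.924 and 0.981 over the 35 levels. Among the non-tuft-like libraries rho was 0.616 to 0.659, and between the populations it was 0.657 to 0.814. These correlations are across genes of the same libraries, and genes are not independent replicates. Many members had few reads in the non-tuft-like libraries, where 10, 6 and 6 of them had none, against 1, 1 and 4 in the tuft-like libraries.

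The level of olfactory receptor genes, few of which are used outside the nose, was taken as a gauge of low counts on receptor genes. The 99th percentile of 1092 olfactory receptor genes lay at 2.78, 2.02 and 1.26 CPM per kb in the tuft-like libraries, and 30, 32 and 30 Tas2r genes lay above it. In the non-tuft-like libraries it lay at 1.78, 1.74 and 2.74 CPM per kb, and 13, 11 and 9 Tas2r genes lay above it. The receptors above it in all 3 non-tuft-like libraries were 8 in number: Tas2r105, Tas2r138, Tas2r108, Tas2r118, Tas2r129, Tas2r137, Tas2r115 and Tas2r126. Another 18 members were above it in none of the non-tuft-like libraries. The share of olfactory receptor genes without a read differed between libraries, from 6.87% in tuft-like library 1 to 77.4% in tuft-like library 3, and its part in the values of single receptors was not tested.

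The fit over all genes (edgeR's quasi-likelihood test, Benjamini-Hochberg adjusted, threshold 0.05) called 687 of 32496 tested genes (2.11%), 378 of them higher in tuft-like mTEC (1.16% of the genes tested) and 309 lower (0.951%). Of the 35 Tas2r genes 31 passed its filter on low counts, and of these 17 were called higher and 0 lower. Since the family was chosen on this contrast, nothing is read from that count. All 31 fitted log2 fold changes were above 0, with a median of 4.51, where the median of all genes tested was 0.02. In 30 of the 35 members every tuft-like library lay above every non-tuft-like library, which held for 7.18% of all genes tested and 4.86% of all gene rows. Just inside the threshold lay Tas2r109 (adjusted p = 0.0293), and just outside it Tas2r144 (0.05005) and Tas2r140 (0.056).

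The 17 members called had a mean level of at least 19.2 CPM per kb in tuft-like mTEC. The member with the highest level that was not called was Tas2r126, at 58.2 ± 16.0 CPM per kb (SD, n = 3).

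The loci shared unequally in the family's transcripts. The 24-gene locus contributed 60.9% ± 2.41 of the summed CPM in tuft-like mTEC and 39.6% ± 6.31 in non-tuft-like mTEC (SD, n = 3 each). Its shares in single libraries were 60.6%, 58.7% and 63.5% against 39.0%, 33.5% and 46.1%, with no overlap. The 3-gene locus contributed 26.1% ± 1.80 against 34.7% ± 7.26. The 5-gene locus contributed 4.10% ± 0.451 against 16.7% ± 9.14, and its shares in the 3 non-tuft-like libraries ranged from 8.45% to 26.5%. The plot of shares by locus shows the wider spread of the non-tuft-like libraries.

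**Figure D2:**
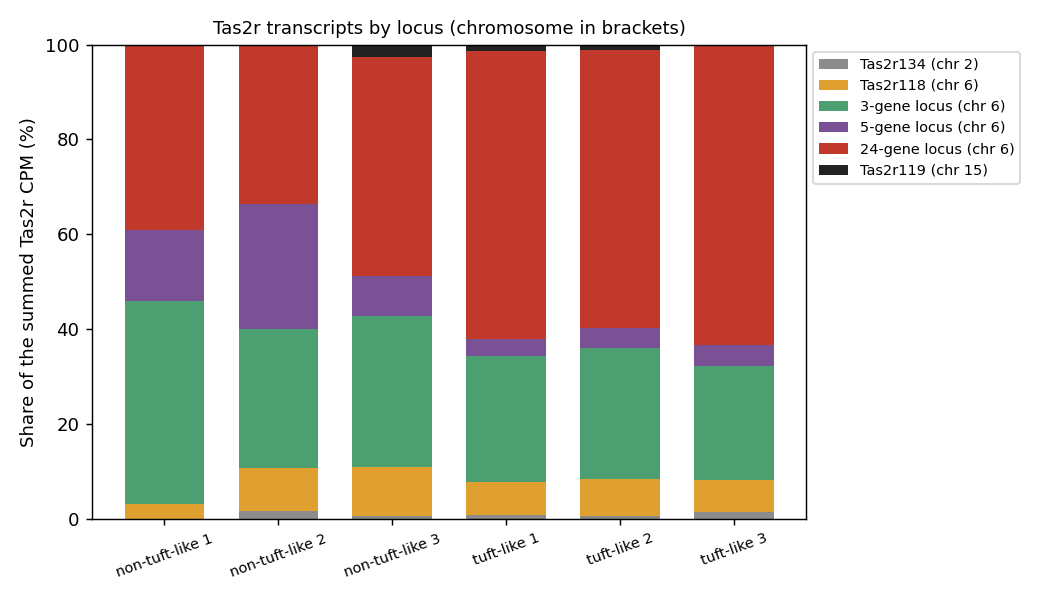
Share of the summed Tas2r CPM (percent, stacked to 100) that each locus contributed in each of the 6 libraries. The red part, the 24-gene locus, is 58.7% to 63.5% in the tuft-like libraries and 33.5% to 46.1% in the non-tuft-like libraries, and the purple part, the 5-gene locus, is the smaller in the tuft-like libraries.

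Set as a ratio of group means of summed CPM, the 24-gene locus was 25.5-fold higher in tuft-like mTEC, the 3-gene locus 12.4-fold and the 5-gene locus 4.02-fold. The ratio and shares of the 5-gene locus are mainly those of Tas2r126. That gene gave 54.1 of 64.7 CPM in tuft-like and 15.4 of 16.1 CPM in non-tuft-like mTEC. Tas2r144 of the same locus, at few reads, had a log2 fold change of 8.50 (SE 1.89). Tas2r134 on chromosome 2 was 18.4-fold higher and Tas2r118 16.0-fold higher. Within the 24-gene locus, the first 6 members gave a ratio of 21.2 and the last 18 a ratio of 29.7. The last 18 members held 36.0% ± 3.28 of the tuft-like and 19.9% ± 1.82 of the non-tuft-like receptor CPM, and the first 6 held 24.9% ± 5.65 and 19.7% ± 4.61.

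In the 3-gene locus all 3 members were called and 2 of them had small fold changes for the family. Over all genes tested 1.16% were called higher, and nothing is read from the count in a family chosen on this contrast. The fitted log2 fold changes were 2.97 (SE 0.30) for Tas2r108, 3.21 (SE 0.35) for Tas2r137 and 5.02 (SE 0.34) for Tas2r138. Tas2r137 and Tas2r108 lie 1.2 kb apart on the same strand, and Tas2r138 lies 117.8 kb further on the other strand. The non-tuft-like mean of Tas2r108 was 12.7% of its tuft-like mean, that of Tas2r137 10.8% and that of Tas2r138 3.07%.

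The 5-gene locus held both prominent and nearly silent receptors. Tas2r126 was at 40.4, 62.8 and 71.4 CPM per kb in the tuft-like libraries and at 14.4, 27.0 and 8.17 CPM per kb in the non-tuft-like libraries. Its groups did not overlap, but they lay closer than those of other prominent members, with a log2 fold change of 1.82 (SE 0.47), the smallest of the 31 tested. Its non-tuft-like mean of 16.5 ± 9.59 CPM per kb (SD, n = 3) was 28.4% of its tuft-like mean. That mean did not differ from the 17.9 ± 4.08 CPM per kb of Tas2r108 beyond their spread, and Tas2r126 was the higher of the pair in library 2 and the lower in libraries 1 and 3. Tas2r135 was at 4.31, 8.10 and 2.60 against 0.606, 1.25 and 0.0291 CPM per kb. Tas2r144 was at 2.67, 4.08 and 6.65 CPM per kb in the tuft-like libraries, while of the non-tuft-like libraries only library 2 held a read of it. Tas2r143 and Tas2r139 did not pass the filter. Tas2r143, the lowest member of the family, had 0, 0 and 13 reads in the tuft-like libraries and 0, 0 and 2 in the non-tuft-like libraries. Tas2r139 had 38, 16 and 0 against 2, 0 and 0 reads. Both genes lay at the edge of detection.

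In the 24-gene locus 22 of the 24 members were tested and 13 of these called, where 1.16% of all genes tested were called higher. Since the family was chosen on this contrast, the count is a description. The fitted log2 fold changes of the 22 tested members ran from 3.02 for Tas2r130 to 9.92 for Tas2r123, with a median of 4.57. Of the first 6 members Tas2r104 and Tas2r105 were called, which lie 0.8 kb apart and are 74.0% identical. Their neighbour Tas2r114, 71.2% identical to Tas2r105 and 1.6 kb from it, had 22, 78 and 0 reads in the tuft-like libraries and none in the non-tuft-like libraries. Tas2r114 did not pass the filter on low counts. With 3 counts pooled over the non-tuft-like group as the floor, its tuft-like mean was 39.1 times that floor. The ratio takes that mean as exact, although 1 tuft-like library held no read of Tas2r114. It is therefore not a lower bound on the fold change. Adjacent receptors of similar sequence thus differed in level from 293 ± 128 to 1.14 ± 1.23 CPM per kb (SD, n = 3). Among the last 18 members Tas2r122 was the lowest, with 27, 18 and 0 reads in the tuft-like libraries and 0, 13 and 0 in the non-tuft-like libraries.

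The pair of most alike receptors differed in the non-tuft-like cells. Tas2r123 was at 20.1, 25.3 and 14.0 CPM per kb in the tuft-like libraries and at 0, 0.0425 and 0 in the non-tuft-like libraries. Tas2r110 was at 11.6, 13.8 and 6.81 CPM per kb in the tuft-like libraries and at 1.10, 1.91 and 0.666 in the non-tuft-like libraries. Tas2r123 was the higher of the pair in 3 of 3 tuft-like libraries, and Tas2r110 in 3 of 3 non-tuft-like libraries. The non-tuft-like mean was 0.0715% of the tuft-like mean for Tas2r123 and 11.4% for Tas2r110. The smallest p that an exact permutation of 3 against 3 libraries allows is 0.1, so no such test was run for this pair. It is the closest pair in sequence, but it was added after its values had been seen, so the contrast is a description.

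**Figure D3:**
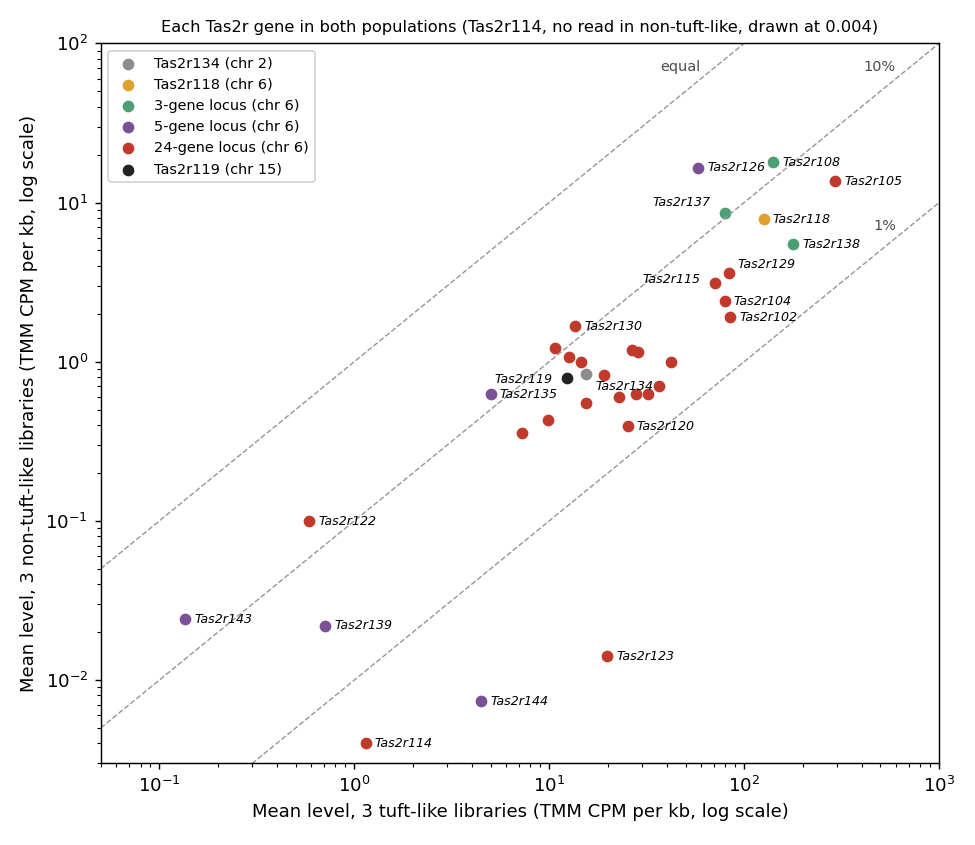
Mean level of each Tas2r gene in the 3 non-tuft-like libraries against that in the 3 tuft-like libraries (TMM CPM per kb, both axes log), coloured by locus, with dashed lines where the non-tuft-like level is equal to, 10% of or 1% of the tuft-like level. Tas2r126 lies nearest to the line of equal levels among the prominent receptors, and Tas2r123 and Tas2r144 lie below the 1% line.

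Over all members the non-tuft-like mean was a median of 4.38% of the tuft-like mean. It was under 5% in 22 members, between 5% and 10% in 5 and above 10% in 8. Besides Tas2r126, Tas2r108, Tas2r137, Tas2r110 and Tas2r135, the last group held Tas2r130 (12.3%) and, at very few reads, Tas2r143 and Tas2r122. Of the 7 members with an octamer in the window before the start, 4 were among these 8 (Tas2r126, Tas2r108, Tas2r137 and Tas2r135). For those 7 the share ran from 0.166% to 28.4%, with a median of 10.8%. For the 24 members whose window held no octamer it ran from 0 to 17.7%, with a median of 3.94%. The ranges overlap, the octamer genes also had a higher median level in tuft-like mTEC (58.2 against 21.3 CPM per kb), and the difference was not tested.

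The single receptor genes on chromosomes 2 and 15 varied widely between libraries. Tas2r134 was at 9.89, 11.0 and 25.4 CPM per kb in the tuft-like libraries against 0, 1.92 and 0.602. Tas2r119, the counterpart of the human gene TAS2R1, had 456, 624 and 0 reads in the tuft-like libraries and 0, 0 and 75 in the non-tuft-like libraries. Tas2r119 was the tested member whose groups overlapped, since tuft-like library 3, the library with the most olfactory receptor genes at 0, held no read of it.

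The genes around the receptors were not used to choose the family and were tested in the same fit. There were 29 protein-coding genes that are no Tas2r within the loci or up to 100 kb from their ends, of which 24 were tested, 4 called higher and 0 lower in tuft-like mTEC, where 1.16% of all genes tested were called higher and 0.951% lower. Their median log2 fold change was 0.67, beside 0.02 over all genes tested. The plot of fold changes along the 3 multi-gene loci shows them between the receptors.

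**Figure D4:**
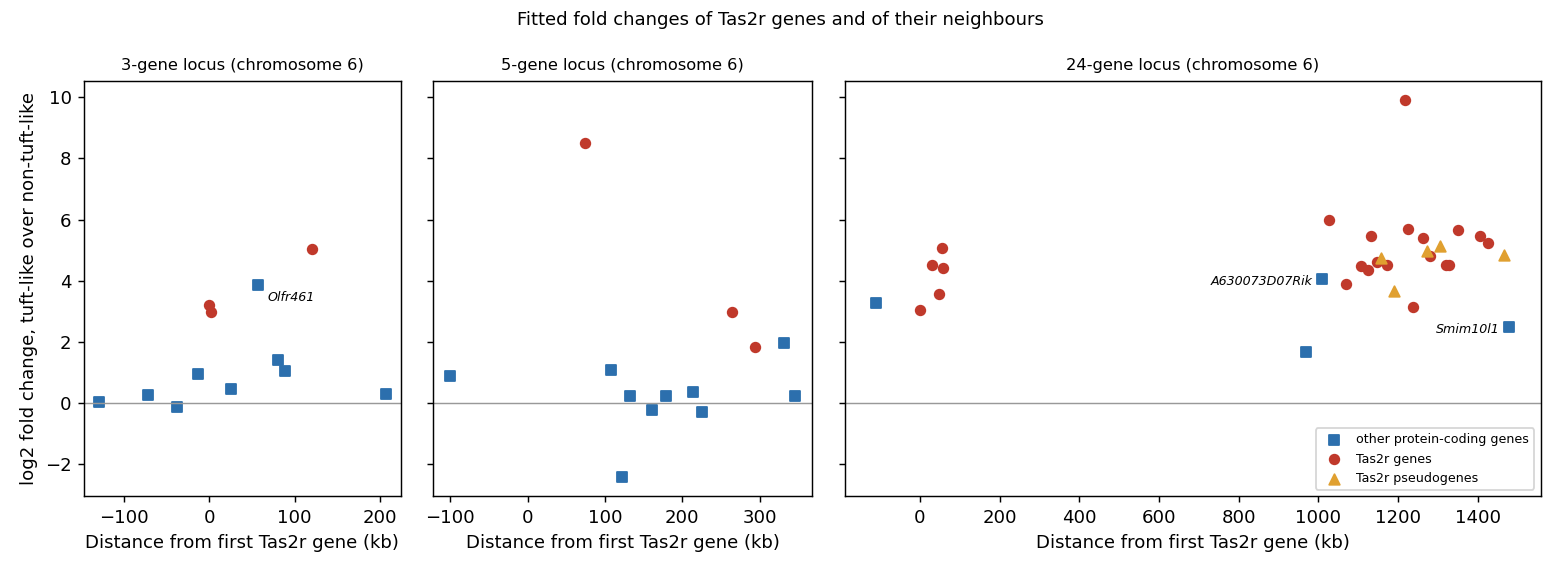
Fitted log2 fold change (tuft-like over non-tuft-like) of tested Tas2r genes (red circles), Tas2r pseudogenes (yellow triangles) and other protein-coding genes (blue squares) against distance in kb from the first Tas2r gene of each multi-gene locus. Blue squares with a name were called higher, and in the 5-gene locus none was called.

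In the 3-gene locus Olfr461, an olfactory receptor gene on the stretch between Tas2r108 and Tas2r138 (chr6:40542171-40555050), was at 120, 169 and 96.5 CPM against 9.69, 12.2 and 4.45 CPM. Its groups lay far apart, with a log2 fold change of 3.87 (SE 0.44, adjusted p = 0.00132). Olfr460, Prss37 and Clec5a, which lie within the same locus, were not called.

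In the 24-gene locus the uncharacterised gene A630073D07Rik (chr6:132625111-132651526), 5.4 kb before Tas2r120 and on the other strand, was at 143, 158 and 201 CPM against 12.8, 8.09 and 9.69 CPM. Its log2 fold change was 4.04 (SE 0.33, adjusted p = 0.000334), close to the median of the receptors. Smim10l1, a gene for a small membrane protein 49.1 kb beyond Tas2r140, was at 326, 502 and 765 CPM against 101, 111 and 74.7 CPM (log2 fold change 2.47, SE 0.38, adjusted p = 0.00684). The salivary proline-rich protein genes Prb1, Prpmp5 and Prh1, in the gap that divides this locus, did not pass the filter on low counts. Prp2, a proline-rich protein gene in the same gap, passed it and stayed under 1 CPM in all 6 libraries. It was at 0.703, 0.877 and 0.525 CPM in the tuft-like libraries against 0.158, 0.0213 and 0.477 CPM, with no overlap, and was not called (log2 fold change 1.67, SE 1.88).

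Beside Tas2r119 on chromosome 15, Sema5a, which encodes a guidance protein of the semaphorin family, was at 172, 209 and 190 CPM against 4.95, 10.9 and 15.6 CPM (log2 fold change 4.18, SE 0.43, adjusted p = 0.000886). In Sema5a all tuft-like libraries were high, library 3 included, in which Tas2r119 had no read. All 4 called neighbours lay in or beside the other loci, and none in the 5-gene locus. Outside the called genes, the neighbours with the highest counts were E330009J07Rik, with a log2 fold change of 0.24 (SE 0.31), and Ssbp1, a mitochondrial DNA-binding protein gene 6.5 kb from Tas2r137, with 0.93 (SE 0.30, adjusted p = 0.237). Ssbp1 was at 118, 138 and 220 CPM against 87.9, 89.5 and 73.0 CPM, so its groups did not overlap although it was not called.

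The 5 Tas2r pseudogenes, all within or beside the last 18 genes of the 24-gene locus, also had every tuft-like library above every non-tuft-like library. That held for 7.18% of all genes tested and 4.86% of all gene rows. Tas2r142-ps5 was the most abundant, at 34.5, 31.5 and 68.8 CPM against 2.59, 0.170 and 1.56 CPM, and was called (log2 fold change 4.97, SE 0.87, adjusted p = 0.0146). The other 4 had log2 fold changes of 3.66 to 5.13 and were not called. Almost all words of Tas2r111-ps2 recur in other annotated genes (3.3% unique), so its counts are uncertain.

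Other chemosensory receptor families were tested in the same fit for comparison. Of 1403 genes of the Tas1r, Vmn1r, Vmn2r, Taar and olfactory receptor families 796 were tested, and 3 were called higher: Tas1r1, Tas1r3 and Olfr461. Over all genes tested 1.16% were called higher. Of the vomeronasal genes 0 of 32 Vmn1r and 0 of 82 Vmn2r were called by edgeR. At the share over all genes, lists of this size may hold no call, so nothing is read from these counts. An unadjusted p under 0.05 was found in 0 of each family, beside 2914 of the 32496 genes tested. DESeq2 called 4 genes over all these families. Of 672 tested olfactory receptor genes 1 was called and 6 had an unadjusted p under 0.05. The median log2 fold change was 0.26 for olfactory receptors, 0.04 for Vmn1r and 0.38 for Vmn2r. The olfactory receptor with the next highest counts, Olfr157, was at 16.0, 13.0 and 8.04 against 0, 5.47 and 6.71 CPM and was not called.

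Of 24 genes of the taste cascade 23 were tested, of which 10 were called higher and 0 lower, with a median log2 fold change of 2.15. Over all genes tested 1.16% were called higher and 0.951% lower. This list includes tuft cell markers and was written with results of these libraries known, so its count is a description.

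Among the partner receptors, Tas1r3, the subunit shared by the sweet and umami receptors, rose by 3.11 on the log2 scale (SE 0.41, adjusted p = 0.0031), and Tas1r1, the umami subunit, by 2.22 (SE 0.45, adjusted p = 0.0307). Tas1r3 was at 139, 209 and 265 CPM against 34.2, 23.5 and 13.2 CPM. The sweet subunit gene Tas1r2 had no read in the non-tuft-like libraries and 0.248, 0.585 and 5.11 CPM in the tuft-like libraries, was not tested, and shares 1510 exonic bases with another gene on its strand.

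Downstream of the receptors, the G protein genes Gnat3 (gustducin alpha), Gnb3 and Gng13 rose by 4.06, 3.58 and 4.15. Gnat3 was at 2045, 3150 and 2953 CPM against 155, 196 and 139 CPM. Plcb2, the phospholipase of the cascade, rose by 3.67, the regulator of G protein signalling Rgs21 by 3.19, the channel gene Trpm5 by 4.31 and Calhm3, a subunit of the channel that releases ATP in taste cells, by 3.83. Pou2f3, the POU-domain factor required for these taste cells and for tuft cells, rose by 2.15 (SE 0.33, adjusted p = 0.00707). It was at 356, 514 and 707 CPM against 125, 117 and 113 CPM, so its reads were counted in the non-tuft-like libraries as well. Which cells of that population held it cannot be told from bulk RNA. The log2 fold changes of the 10 called cascade genes, from 2.15 to 4.31, lay within the receptors' range of 1.82 to 9.92 and below their median.

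Other cascade genes were not called. Calhm1, the partner subunit of Calhm3, had a log2 fold change of 4.22 (adjusted p = 0.0676) with no overlap between the groups. The calcium release channel gene Itpr3 had 0.51 (SE 0.35), Gnb1 0.78 (SE 0.33), Trpm4 0.37 (SE 0.37) and Panx1 1.46 (SE 0.57). The trafficking genes Rtp1, Rtp2, Rtp3, Rtp4 and Reep2, some of which help chemosensory receptors to reach the cell surface, had log2 fold changes between -1.39 and -0.20. The SE was 0.27 for Rtp4 and 1.28 to 2.31 for the others, in each gene larger than the change itself. The ectonucleotidase gene Entpd2 had -1.76 (SE 0.56) and the transcription factor gene Sox2 had 4.81 (SE 2.17). Sox2 stayed under 1 CPM in all 6 libraries.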

How the data were processed

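Reads of 6 libraries (SMARTer ultra-low input kit) were trimmed by the authors with Trimmomatic 0.36, aligned to mm10 with STAR 2.7.3a and assigned to genes with HTSeq (intersection-nonempty). The authors deposited whole read counts per gene, without normalization. The methods state sorting into trizol, whereas a column kit is named in the labels. Strand setting and annotation release are not given in the sources used here. Gene rows were matched to GENCODE M21, which named 99.72% of 52636, and unmatched rows held 0.0164% of the counts. The 92 ERCC rows were all at 0, and rows of reads assigned to no gene were left out.

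Groups came from the labels. Low counts were removed with edgeR's filterByExpr at a minimum count of 10 and a minimum total of 15, libraries were scaled by TMM, and genes were tested with edgeR 4.0.16 (quasi-likelihood F-test, no covariates) in R 4.3.3. Standard errors were approximated from the fold change and the F statistic (log2 fold change over root F). The script was tested on simulated data. A count of 0 allowed up to 3 counts, 0.0639 to 0.124 CPM, a limit that covers counting error only, because without molecular identifiers reads do not count independent molecules. Identities came from global alignments (Biopython). Alternatives were other scalings and filters, DESeq2 1.42.0, limma voom 3.58.1, a replicate block and leaving out each library. Replicate numbers were checked for pairing: deviations from the group means correlated at -0.156, -0.061 and -0.326 within the numbers, so they were not used as pairs. The members, lists and tests were chosen with earlier results of these data known. Values per library were given for the 8 receptors with the highest level per kb, the highest and lowest of each locus and those whose groups overlapped. They were also given for called neighbours and family genes with the 3 most abundant of each. Tas2r134, Tas2r135, Tas2r144, the pair Tas2r123 and Tas2r110, and Tas2r142-ps5 were added after their values were seen. Protein sequences were not used here, and the value of 1 gene of a list is not reported here.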

Additional observations from a re-analysis of the deposited data

How the results depend on the processing

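The summed Tas2r ratio of 16.45 was 16.77 with RLE scaling and 15.93 with library size only, and it ranged from 15.63 to 17.85 when single libraries were left out. The 17 receptors called became 27 with DESeq2, 15 to 19 when single libraries were left out, 24 without a filter, 19 with limma voom and 18 with RLE scaling. Called neighbours rose from 4 to 7 with DESeq2 and stayed at 4 or 5 otherwise. Over all genes the 687 calls became 1045 with library size only, 1127 without a filter and 1904 with DESeq2, and ranged from 376 to 922 when single libraries were left out (379 without non-tuft-like library 2, 376 without tuft-like library 2). The split of 378 higher and 309 lower became 460 and 445 with limma voom, 519 and 526 with library size only, and 310 and 612 without tuft-like library 3. The cause was not tested. With the replicate block, 737 genes and 19 receptors were called, Tas2r103 and Tas2r140 being added, and the calls of the other lists kept their number. The taste cascade gave 8 to 13 calls and the other receptor families 2 to 4.

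Of 403 refits of single receptors 0 changed direction, 26 gained a call and 5 lost one. Tas2r109 lost it without non-tuft-like library 3, tuft-like library 2 or tuft-like library 3, and Tas2r117 lost it with limma voom and without tuft-like library 2. The median log2 fold change of all genes, 0.02, was 0.06 with RLE scaling and 0.03 with library size only, and it ranged from -0.20 without tuft-like library 1 to 0.15 without non-tuft-like library 3. With a gap of 200 kb in place of 1 Mb there were 7 loci in place of 6. Counting 50-base words over the whole genome was not run, and words unique among annotated transcripts were used in its place, a choice made after the data were seen. Tas2r143, Tas2r139, Tas2r122 and Tas2r114 had few reads at this depth, and the common biological coefficient of variation was 1.10.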
